A study of Mus musculus with 30 samples.

Results

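Transferrin receptor and iron handling were examined in mouse embryonic stem (ES) cells through 8 genes: Tfrc, Slc11a2, Steap3, Slc40a1, Fth1, Ftl1, Ireb2 and Aco1. They were chosen by name, with earlier results of these data known. Every probe that the platform annotation gives 1 of these symbols was taken. That gave 9 probes of the 24611 on the Illumina BeadChip, 1 per gene and a pair for Ireb2. Of the 9 probes, 8 passed the filter on dim probes, so 7 of the 8 genes were among the 9826 genes tested.

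The study set Notch signaling beside hypoxia in 1 cell line, with 28 samples in 7 groups of 4. All cells were of the Ainv15 line, a male ES cell line with a doxycycline-controlled gene at 1 fixed site, which as known of the study is the intracellular domain of Notch1. Every group was kept for 6 hours in its condition. The ESC group was in ES cell medium, which holds fetal calf serum (FCS), a serum replacement (KSR) and LIF. The N2B27 group, the control of the study, was in a mix of DMEM/F12 and Neurobasal with the N2 and B27 supplements and no serum or LIF listed. The Dox group was in N2B27 with doxycycline at 2 ug/ml. The DAPT group received DAPT, an inhibitor of gamma-secretase, at 2.5 ng/ml (the unit in the labels), first for 4 hours in the serum medium and then in N2B27. The groups 1% O2, 1% O2+Dox and 1% O2+DAPT were treated as these last 3, with 1% oxygen listed only for the 6 hours in N2B27. No control line without the transgene was given doxycycline, so drug and transgene cannot be told apart. The ESC and N2B27 groups differ in serum, LIF, basal medium and supplements at once, and the parts played by these cannot be told apart.

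Cells take up iron bound to transferrin through the transferrin receptor, which Tfrc encodes. In the endosome the ferrireductase Steap3 reduces the iron, and the divalent metal transporter Slc11a2 (DMT1) carries it to the cytosol. Ferritin, built from the heavy chain Fth1 and the light chain Ftl1, stores it, and ferroportin, encoded by Slc40a1, exports it. When iron is scarce, the iron regulatory proteins Aco1 (IRP1) and Ireb2 (IRP2) bind hairpins in the mRNAs. Binding protects the Tfrc mRNA from decay and blocks translation of the ferritin and ferroportin mRNAs. Arrays measure the mRNA only, not translation. Tfrc is also a known target of the hypoxia-inducible factors (HIF), whose core DNA motif is ACGTG or GCGTG.

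Promoters are shown because Tfrc and Fth1 had differences of opposite sign between the media (Fth1 called with the replicate block only, as given below) while Ftl1, the other ferritin chain, was near 0. RefSeq tables on GRCm38.p6 held promoters for 6 of the 8 genes and none for Slc11a2 or Slc40a1. The 250 bases before the annotated start are printed for Tfrc (chr16:32608646-32608895, plus strand), for the downstream of the annotated Fth1 starts (chr19:9982396-9982645, plus strand) and for Ftl1 (chr7:45459887-45460136, minus strand). A stretch of 30 bases across the Tfrc start (chr16:32608881-32608910) is added because an ACGTG there overlaps the start itself. Capitals mark ACGTG or GCGTG on either strand, so CACGT and CACGC count too.
Tfrc promoter: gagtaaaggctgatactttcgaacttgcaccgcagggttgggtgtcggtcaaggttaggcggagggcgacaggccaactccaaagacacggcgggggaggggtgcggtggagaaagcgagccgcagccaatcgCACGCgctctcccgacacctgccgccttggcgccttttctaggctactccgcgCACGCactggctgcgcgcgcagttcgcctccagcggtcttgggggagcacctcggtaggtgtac
Tfrc start site: cctcggtaggtgtACGTGcggaaggaagtg
Fth1 promoter: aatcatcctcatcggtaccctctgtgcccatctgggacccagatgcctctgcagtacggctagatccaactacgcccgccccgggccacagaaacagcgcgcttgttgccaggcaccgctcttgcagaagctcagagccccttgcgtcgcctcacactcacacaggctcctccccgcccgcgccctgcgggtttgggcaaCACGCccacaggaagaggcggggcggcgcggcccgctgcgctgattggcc
Ftl1 promoter: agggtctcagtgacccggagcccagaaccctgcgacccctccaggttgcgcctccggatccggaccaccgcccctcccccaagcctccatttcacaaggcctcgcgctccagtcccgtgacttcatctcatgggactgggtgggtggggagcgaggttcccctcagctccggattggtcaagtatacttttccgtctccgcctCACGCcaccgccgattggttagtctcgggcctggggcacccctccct
The Tfrc window held 2 matches, both GCGTG on the reverse strand, which end 113 and 60 bases before the start. The printed Fth1 window and the Ftl1 window held 1 each, also on the reverse strand. The window before the other annotated Fth1 start (chr19:9980350-9980599) held neither motif. A second annotated Tfrc start, downstream of the first, had 1 ACGTG and 2 GCGTG in its window. That window overlaps the first, and its ACGTG is the same one that is printed across the first start. The windows of Ireb2 and Aco1 held neither motif, and 1 of the 4 Steap3 windows held a GCGTG. At least 1 match was present in 38.6% of the 32851 promoter windows of this length, ACGTG in 16.6% and GCGTG in 28.2%. A match of 5 letters describes the sequence and does not show that a factor binds there.

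Levels below are normalized log2 intensities, and differences between groups are log2 fold changes with the standard error (SE) of the limma model. A gene was called at an adjusted p under 0.05 over all 9826 genes tested. The 28 samples carry replicate numbers 1 to 4, and samples of 1 number deviated together, so each result is also given from the model with the replicate number as a block (the replicate block) where that changes the call. Of 10 listed ES cell markers 9 were on the array, and all 9, among them Pou5f1, Nanog and Sox2, were above background in every sample. Of 6 erythroid markers on the array, Klf1 was above background in every sample and Gata1 and Alas2 in none. The 3 macrophage markers on the array were in none. Markers of other lineages were also above background in every sample, namely all 4 of trophectoderm (Cdx2, Eomes, Krt8 and Krt18), 3 of 5 of endoderm (Gata4, Gata6 and Sox17), 2 of 6 of fibroblasts (Pdgfrb and Thy1) and 1 of 4 of neural cells (Tubb3), while Foxa2, Afp, Pax6 and Sox1 were in none. The part of such cells in the results was not tested. Low oxygen raised the HIF targets Egln3 (3.90 ± 0.23, adjusted p = 2.16e-11) and Vegfa (1.55 ± 0.17) in N2B27, Dox raised the Notch target Nrarp (3.45 ± 0.29), and the serum-responsive gene Ccn1 fell with the medium change (-1.42 ± 0.24).

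**Figure D1:**
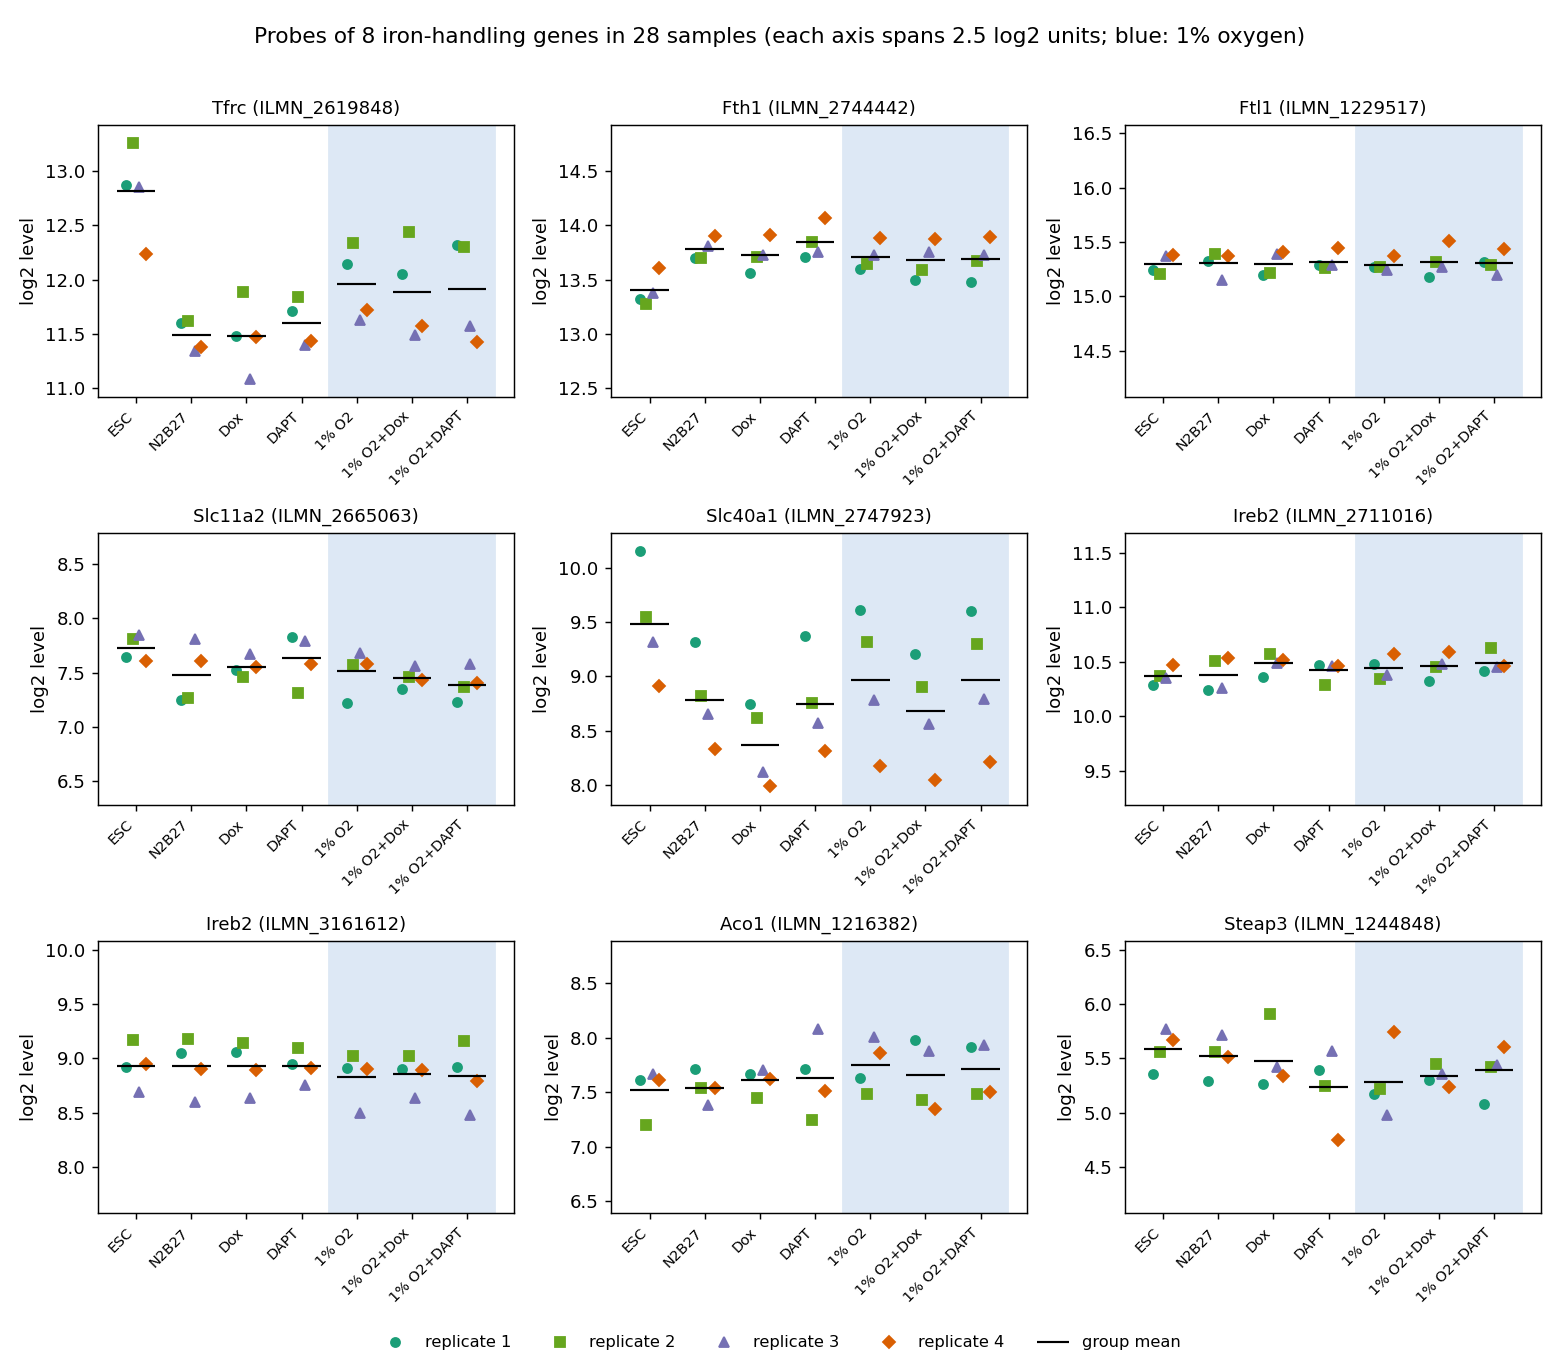
Normalized log2 level of the 9 probes of the 8 iron-handling genes in each of 28 samples; points are samples marked by replicate number, bars are means of 4, blue areas are groups under 1% oxygen, and each axis spans 2.5 log2 units. By group mean Tfrc stands highest in ESC (samples 12.24 to 13.26) and Fth1 lowest there (samples 13.28 to 13.61). Some samples of other groups lie inside these ranges. Steap3 lies below background in all samples.

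Tfrc, the receptor gene, had the largest difference of the members between the media and fell in N2B27. Its log2 level was 12.87, 13.26, 12.85 and 12.24 in ESC replicates 1 to 4, and 11.60, 11.62, 11.34 and 11.38 in N2B27. The groups did not overlap, and N2B27 was lower in 4 of 4 replicate pairs, with differences of -1.27, -1.64, -1.51 and -0.86. The log2 fold change was -1.32 ± 0.24 (2.5-fold lower, adjusted p = 0.00316). Of the 9826 genes tested, Tfrc had the fifth most negative value. It fell by 1.46 within replicates 1 and 2 alone and by 1.18 within replicates 3 and 4 alone. In a fit of the ESC and N2B27 groups alone the value stayed at -1.32 with an adjusted p of 0.0596, which ends the call. In bulk RNA, fewer cells with the transcript and less RNA per cell cannot be told apart.

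The opposite sign was seen for Tfrc under 1% oxygen. The 1% O2 group had log2 levels of 12.14, 12.34, 11.63 and 11.72, each above the highest N2B27 sample (11.62). The log2 fold change over N2B27 was 0.47 ± 0.24 (1.39-fold), which was not called without the block (adjusted p = 0.407) and was called with the replicate block (± 0.12 SE, adjusted p = 0.00837), with 4 of 4 pairs higher. With Dox in both groups the difference was 0.40 (4 of 4 pairs, adjusted p = 0.0222 with the replicate block), and 0.22 without 1% O2+Dox replicate 2 in the model without the block. With DAPT in both it was 0.31 (3 of 4 pairs) and was not called (adjusted p = 0.0760 with the replicate block). In the model without the block this DAPT value was 0.17 without 1% O2+DAPT replicate 1, 0.18 without replicate 2 and 0.47 without replicate 4 of that group. Over the Dox and DAPT pairs together it was 0.36 ± 0.17 (1.28-fold, adjusted p = 0.217, and 0.00258 with the replicate block). Replicates 1 and 2 gave the larger values. In replicates 1 and 2 alone the mean of the Dox and DAPT pairs was 0.55 (adjusted p = 0.0174), and in replicates 3 and 4 alone it was 0.17 (adjusted p = 0.552). The same split was 0.63 and 0.31 in N2B27, and the difference between the sets was not tested.

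The medium change and the oxygen effect in N2B27 share the 4 N2B27 samples, so their values stand side by side without a test between them. The oxygen effect of the Dox and DAPT pairs shares no sample with the medium change, and the difference between these 2 effects was tested. Signs were kept in this difference, so it does not compare the sizes of the effects. For Tfrc it was -1.68 ± 0.30 (95% confidence interval -2.29 to -1.07, adjusted p = 0.000718). Of the genes tested, 5.2% were called in this difference (21.9% with the replicate block), and 2 of 7 members (3 with the block). Leaving out 1 sample at a time kept the Tfrc value between -1.87 and -1.53, with an adjusted p of at most 0.00309.

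Under 1% oxygen Tfrc remained below its level in ES cell medium. The 1% O2 group lay 0.85 ± 0.24 lower than ESC on the log2 scale (adjusted p = 0.0213), with its highest sample (12.34) just above the lowest ESC sample (12.24). This call was less stable. It was lost in 5 of the 8 fits that left out 1 sample, with an adjusted p of up to 0.0955 without ESC replicate 2, and in a fit of these groups alone (0.0813), but not with the replicate block (9.88e-06). Of all genes 11.4% were called in this comparison, beside 1 of 7 members, and 33.9% with the replicate block, beside 3 of 7. In order of mean level the groups ran ESC (12.81 ± 0.42 SD), 1% O2 (11.96 ± 0.34), 1% O2+DAPT (11.91 ± 0.47), 1% O2+Dox (11.89 ± 0.45), DAPT (11.60 ± 0.21), N2B27 (11.49 ± 0.14) and Dox (11.48 ± 0.33), n = 4 each. The step from ESC to the next group, 0.85, was larger than the spread, and none of the other neighbours in that order differed beyond their spread. Fth1 and Slc40a1 also differed between 1% O2 and ESC, called only with the replicate block. Fth1 was 0.31 higher (adjusted p = 0.0581, and 2.68e-05 with the block). Slc40a1 was at -0.51 (adjusted p = 0.440, and 0.000178 with the block). Without the block, the Slc40a1 value was -0.25 without 1% O2 replicate 4 and -0.29 without ESC replicate 1.

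**Figure D2:**
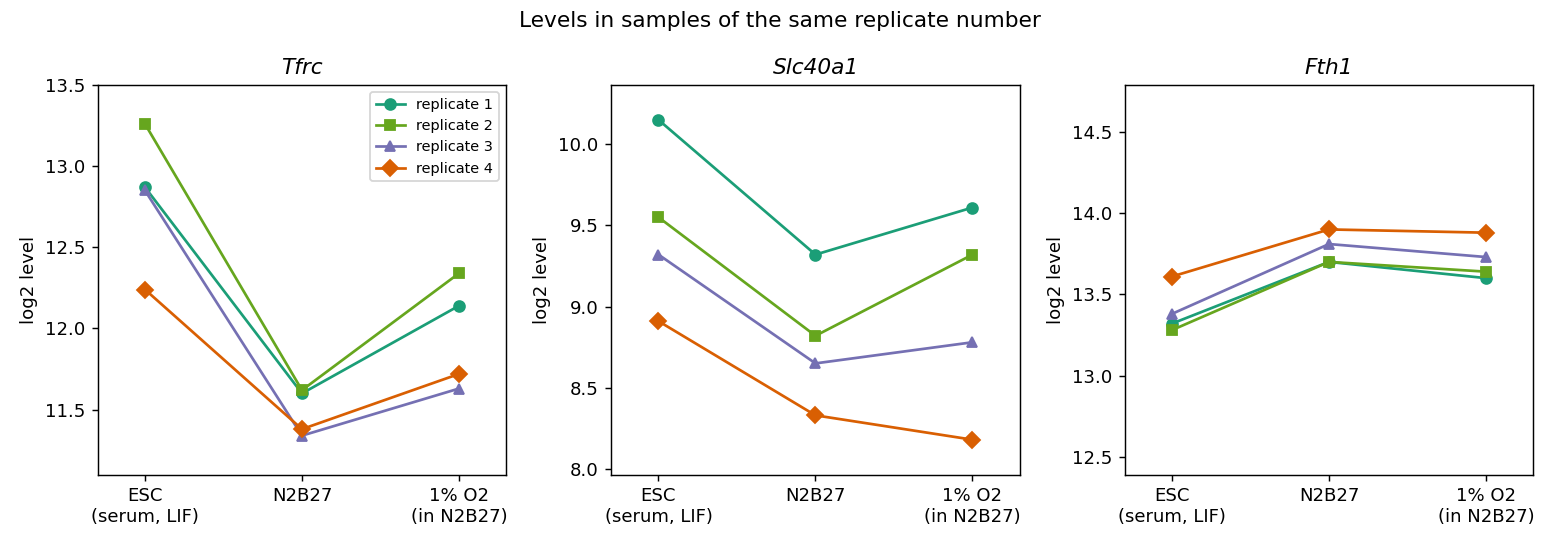
Log2 level of Tfrc, Slc40a1 and Fth1 in the ESC, N2B27 and 1% O2 groups; each line joins the 3 samples of 1 replicate number. All 4 lines of Tfrc and of Slc40a1 go down from ESC to N2B27 and all 4 of Fth1 go up, and all 4 of Tfrc rise again under 1% oxygen.

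Slc11a2, the endosomal transporter that works after the receptor, showed no called change. It ranged from 7.22 to 7.85 over the 28 samples and was above background in all of them. The medium change was -0.24 ± 0.13 (adjusted p = 0.518, and 0.0914 with the replicate block). Replicates 1 and 2 differed by -0.39 and -0.54, and replicates 3 and 4 by -0.04 and 0.00. The oxygen effect was 0.03 ± 0.13 in N2B27 and -0.17 ± 0.09 over the Dox and DAPT pairs (adjusted p = 0.288, and 0.0605 with the replicate block). For Steap3 no level could be given. Its deposited signal lay between -12.2 and 20.6 units over the 28 samples, below the background limit of 27 to 37.8 units on every array.

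Slc40a1, the iron exporter, had a negative difference in the medium change, as Tfrc did, and was called there only with the replicate block. Its log2 level was 10.15, 9.55, 9.32 and 8.91 in ESC, and 9.32, 8.82, 8.65 and 8.33 in N2B27. The groups overlap. Each N2B27 sample was below the ESC sample of its number, with differences of -0.83, -0.73, -0.67 and -0.58. The log2 fold change of -0.70 had an SE of 0.34 without the block (adjusted p = 0.450) and of 0.09 with the replicate block (1.63-fold lower, adjusted p = 1.53e-05). Of the variance of this probe 61.4% went with the replicate number and 34.4% with the group.

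Low oxygen gave Slc40a1 small positive values. In 1% O2 its levels were 9.61, 9.32, 8.78 and 8.18, with 3 of 4 pairs above N2B27 and replicate 4 below it. The difference was 0.19 (adjusted p = 0.992, and 0.162 with the replicate block). It was 0.31 with Dox in both groups (4 of 4 pairs, adjusted p = 0.0222 with the replicate block) and 0.22 with DAPT in both (3 of 4 pairs, adjusted p = 0.10 with the replicate block). Over both sets of pairs it was 0.27 (adjusted p = 0.639, and 0.00333 with the replicate block). In the model without the block these values moved when 1 sample was left out. The Dox value was 0.13 without 1% O2+Dox replicate 1, 0.18 without Dox replicate 4 and 0.52 without 1% O2+Dox replicate 4, the DAPT value ran from 0.01 without 1% O2+DAPT replicate 1 to 0.48 without replicate 4 of that group, and the value over both sets was 0.16 without 1% O2+DAPT replicate 1. The difference of the medium change from the value over both sets was -0.97 ± 0.42 (adjusted p = 0.242, and 1.37e-06 with the replicate block).

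Slc40a1 was also the member with the largest negative value under doxycycline. The Dox samples had log2 levels of 8.75, 8.62, 8.12 and 7.99, lower than N2B27 in 4 of 4 pairs. The log2 fold change of -0.41 ± 0.34 was called only with the replicate block (± 0.09, adjusted p = 0.0185; adjusted p = 1 without it). In the model without the block it was -0.23 without N2B27 replicate 1 and up to -0.56 in size without N2B27 replicate 4. Of the genes tested, 0.336% were called in Dox against N2B27, and 1.73% with the replicate block. Under 1% oxygen the Dox effect was -0.29, lower in 4 of 4 pairs and not called (adjusted p = 0.179 with the replicate block). The interaction of oxygen and Dox for Slc40a1 was 0.12 with a 95% confidence interval of -0.16 to 0.39 with the replicate block. No other member was called with Dox. The 7 members lay between -0.03 and 0.15 with DAPT in N2B27, and DAPT gave 0 called genes of 9826 in limma with or without the block (82 and 564 at an unadjusted p under 0.05).

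Fth1, the heavy chain of ferritin, had the opposite sign to Tfrc in the medium change and rose there when the replicate block was fitted. Fth1 stood at 13.32, 13.28, 13.38 and 13.61 in ESC and at 13.70, 13.70, 13.81 and 13.90 in N2B27, without overlap. Pairs were 0.39, 0.43, 0.42 and 0.29 higher in N2B27. The log2 fold change was 0.38 (1.3-fold) with an SE of 0.11 and an adjusted p of 0.0669 without the block, and with an SE of 0.05 and an adjusted p of 8.77e-06 with the replicate block. The value was 0.41 in replicates 1 and 2 and 0.36 in replicates 3 and 4. ESC was the lowest of the 7 groups, and the other 6 had means from 13.68 to 13.85, none of whose neighbours in order differed beyond their spread.

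Under 1% oxygen Fth1 had small negative values, none called without the block. The oxygen effect was -0.07 in N2B27 (4 of 4 pairs lower, adjusted p = 0.371 with the replicate block). With Dox in both groups it was -0.05 (3 of 4 pairs lower) and was not called (adjusted p = 0.531 with the replicate block). With DAPT in both it was -0.15 (adjusted p = 0.0298 with the replicate block). Over the Dox and DAPT pairs it was -0.10 ± 0.08 (adjusted p = 0.521), and ± 0.03 with an adjusted p of 0.0271 with the replicate block. Without the block, the DAPT value was -0.08 without 1% O2+DAPT replicate 1 or without DAPT replicate 4, and the value over both sets was -0.06 without DAPT replicate 4. With signs kept, the medium change minus this oxygen effect was 0.48 ± 0.13. The 2 effects have opposite signs, so their sizes are not compared here. The difference was called (adjusted p = 0.0290). That call is sensitive to the processing, since the adjusted p was 0.129 with the authors' processed values, 0.165 with median scaling, 0.0595 without the filter on dim probes and 0.280 with replicates 3 and 4 only. It was also lost in 5 of 24 fits that left out 1 sample, namely without ESC replicate 1, 2 or 3 or N2B27 replicate 3 or 4 (at most 0.0743).

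No change was called for Ftl1, the light chain, in any comparison. It was at 15.24, 15.21, 15.37 and 15.38 in ESC, at 15.33, 15.39, 15.15 and 15.37 in N2B27, and at 15.27, 15.27, 15.24 and 15.37 in 1% O2. These groups overlap throughout. Its medium change was 0.01 ± 0.08 (95% confidence interval -0.16 to 0.18) and its oxygen effect -0.02 ± 0.08 (-0.19 to 0.14), so changes of the size seen for Fth1 in the medium lie outside the interval. The deposited Ftl1 signal was 35565 to 46112 units, and the probe ranked between 16 and 55 from the brightest on the arrays. Whether so bright a probe could show a change of the Fth1 size was not tested.

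Neither iron sensor was called in any comparison. Ireb2 was 10.37 ± 0.08 (SD, n = 4) in ESC, 10.38 ± 0.16 in N2B27 and 10.44 ± 0.11 in 1% O2, with a medium change of 0.01 ± 0.08 SE and an oxygen effect of 0.06 ± 0.08. The second Ireb2 probe had means of 8.93 in ESC and in N2B27 and of 8.83 in 1% O2. Both probes thus gave a medium difference near 0, while they differed in sign for oxygen. Aco1 was 7.52 ± 0.21 in ESC, 7.54 ± 0.13 in N2B27 and 7.75 ± 0.24 in 1% O2. Its medium change was 0.02 ± 0.17 and its oxygen effect 0.21 ± 0.17 (adjusted p = 0.767), with 2 of 4 pairs higher. These proteins are known to be controlled mainly by iron and oxygen after translation, which the arrays do not measure.

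**Figure D3:**
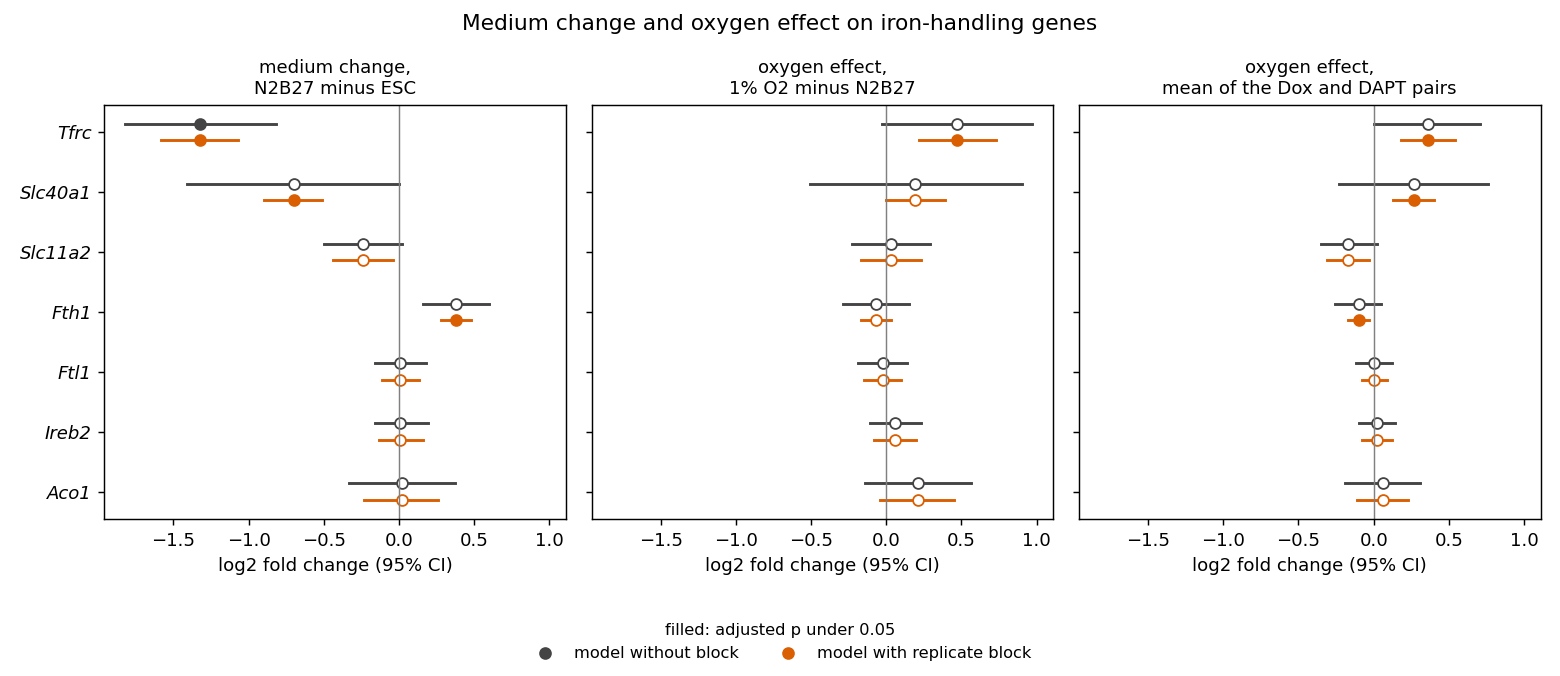
Log2 fold change with its 95% confidence interval for the 7 tested members in the medium change, the oxygen effect in N2B27 and the mean oxygen effect of the Dox and DAPT pairs; grey is the model without block, orange the model with the replicate block, and filled points have an adjusted p under 0.05. Tfrc is at -1.32 in the medium change and at 0.47 and 0.36 under low oxygen, while Ftl1, Ireb2 and Aco1 cross 0 in all panels.

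The members were chosen with earlier results of these data known, so the shares below are descriptions and do not test enrichment. Counted together, 1 of the 7 tested members was called in the medium change, where 1.93% of all genes were called, and 3 of 7 with the replicate block, where 16% were. In the oxygen effect in N2B27 the members had 0 of 7 called against 4.09% of all genes, and 1 of 7 with the replicate block against 19.9%. Unadjusted, 1089 and 1353 genes had a p under 0.05 in these 2 comparisons in limma without the block. With Dox in both groups 0 of 7 members were called against 4.06%, and 2 against 19.4% with the replicate block. With DAPT in both, the counts were 0 against 4.02%, and 1 against 21% with the replicate block. Over the Dox and DAPT pairs together 0 of 7 were called against 11.6%, and 3 of 7 against 33.5% with the replicate block. The median of the 7 members was 0.01 in the medium change and 0.06 in the oxygen effect, beside medians of 0.01 and -0.02 over all genes tested. Groups without overlap were found for Tfrc and Fth1 in the medium change, against 6.91% of all genes, and for Tfrc in the oxygen effect, against 8.5%. No member was called in either interaction of oxygen with a drug, with or without the block. The interaction with Dox was called in 0.0102% of all genes, and in 0.0204% with the replicate block.

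The members also differed in how much of their variance went with the replicate number and with the group. The replicate number took 26.5% of the Tfrc variance and the group 65.4%. For Fth1 the shares were 42.5% and 52.1%. For Ftl1 the group took 1.42%, and for the second Ireb2 probe the replicate number took 87.9%. After subtraction of the mean of each replicate number, which leaves the differences between groups in place, Tfrc correlated with Fth1 at r = -0.88 and with Slc40a1 at 0.85 across the 28 samples, and with Slc11a2 at 0.39, Ireb2 at -0.21, Aco1 at -0.10 and Ftl1 at -0.06. These samples share groups and arrays, and the correlations are descriptions. The genes most like Tfrc by the same measure, of 9825 others, were Tmem167 (0.90), Itgb1 (0.89), Plac8 (0.87), Epha4 (0.86) and Tmem79 (0.86). Itgb1 encodes the integrin beta-1 chain.

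Beyond the 8 members, 55 other genes of iron uptake, storage, mitochondrial use and haem metabolism were listed, of which 42 were on the array and 31 tested. They too were listed with earlier results of these data known, so their shares are descriptions. Tfr2, the second transferrin receptor, is left out of the counts that follow, a choice made after its values were seen. It passed the filter on dim probes only through samples under 1% oxygen, since it was above the array median in 0 of the 16 other samples and in 5 of the 12 under 1% oxygen. It was above background in 0 of 4 N2B27 and 3 of 4 1% O2 samples, and against the dimmest level above background its mean of 6.19 in 1% O2 was at least 1.02-fold that in N2B27, where the measured mean was 5.38. None of the other 30 was called in the medium change without the block, against 1.93% of all genes. With the replicate block 5 rose and 1 fell, which is 20% beside 16% of all genes tested. Slc48a1, the haem transporter HRG1, had the largest value, 0.76 ± 0.21 without the block (adjusted p = 0.0674) and ± 0.10 with the replicate block (adjusted p = 1.94e-05). The other rises with the block were Fech, which inserts iron into haem (0.38), Slc25a28, the mitochondrial iron importer mitoferrin 2 (0.28), the haem oxygenase Hmox1 (0.27) and the biliverdin reductase Blvrb (0.24). Of the 12 tested haem genes 4 were thus called with the block, all higher, beside the same 16% of all genes called in either direction. Without the block 0 of these 12 were called. In the other lists the block gave 1 of 6 mitochondrial genes higher, 0 of 4 storage genes called and 1 of 9 uptake genes lower (Tfr2 among the 9). No list was tested as a set. Steap1, of the uptake list, fell (-0.41, adjusted p = 0.00377 with the replicate block). Its value was -0.27 without N2B27 replicate 1 in the model without the block.

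Under low oxygen in N2B27 1 of the 30 rose and 1 fell without the block, or 6.67% beside 4.09% of all genes. Hmox1, at 12.47, 12.62, 12.43 and 12.47 in N2B27, was at 13.27, 13.01, 13.10 and 12.91 in 1% O2 (0.58 ± 0.12, 1.49-fold, adjusted p = 0.00396). Slc25a28 fell from 11.74, 11.86, 11.49 and 11.75 to 11.20, 11.39, 11.07 and 11.33 (-0.46 ± 0.10, adjusted p = 0.00887). In both genes, named because they were called, the groups did not overlap, as in 8.5% of all genes tested. Hmox1 had 0.60 within replicates 1 and 2 and 0.55 within replicates 3 and 4 (adjusted p = 0.0735 in the latter), and Slc25a28 -0.51 and -0.42 (0.0575 and 0.164). The Slc25a28 call was lost without replicate 3 of 1% O2 (adjusted p = 0.0524) and in a fit of the 2 groups alone (0.109).

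With the replicate block 3 of the 30 rose and 4 fell under low oxygen in N2B27, or 23.3% beside 19.9% of all genes. Beside Hmox1, the rises were Alas1, the first enzyme of haem synthesis (0.30), and Ciao1, of the cytosolic iron-sulfur assembly (0.22). Beside Slc25a28, the falls were Slc48a1 (-0.71), Steap1 (-0.62) and Slc25a37, mitoferrin 1 (-0.52). In the Dox and DAPT pairs, which share no sample with N2B27, 3 rose and 3 fell without the block, or 20% beside 11.6% of all genes. They were Hmox1 (0.61), Alas1 (0.32), Ciao1 (0.29), Slc25a37 (-0.57), Slc48a1 (-0.53) and Slc25a28 (-0.43). Both mitoferrin genes were thus lower under 1% oxygen in these pairs, with adjusted p-values of 0.0238 for Slc25a37 and 0.000285 for Slc25a28. When the replicate block was fitted, 5 of the 30 rose and 8 fell in these pairs, or 43.3% beside 33.5% of all genes.

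**Figure D4:**
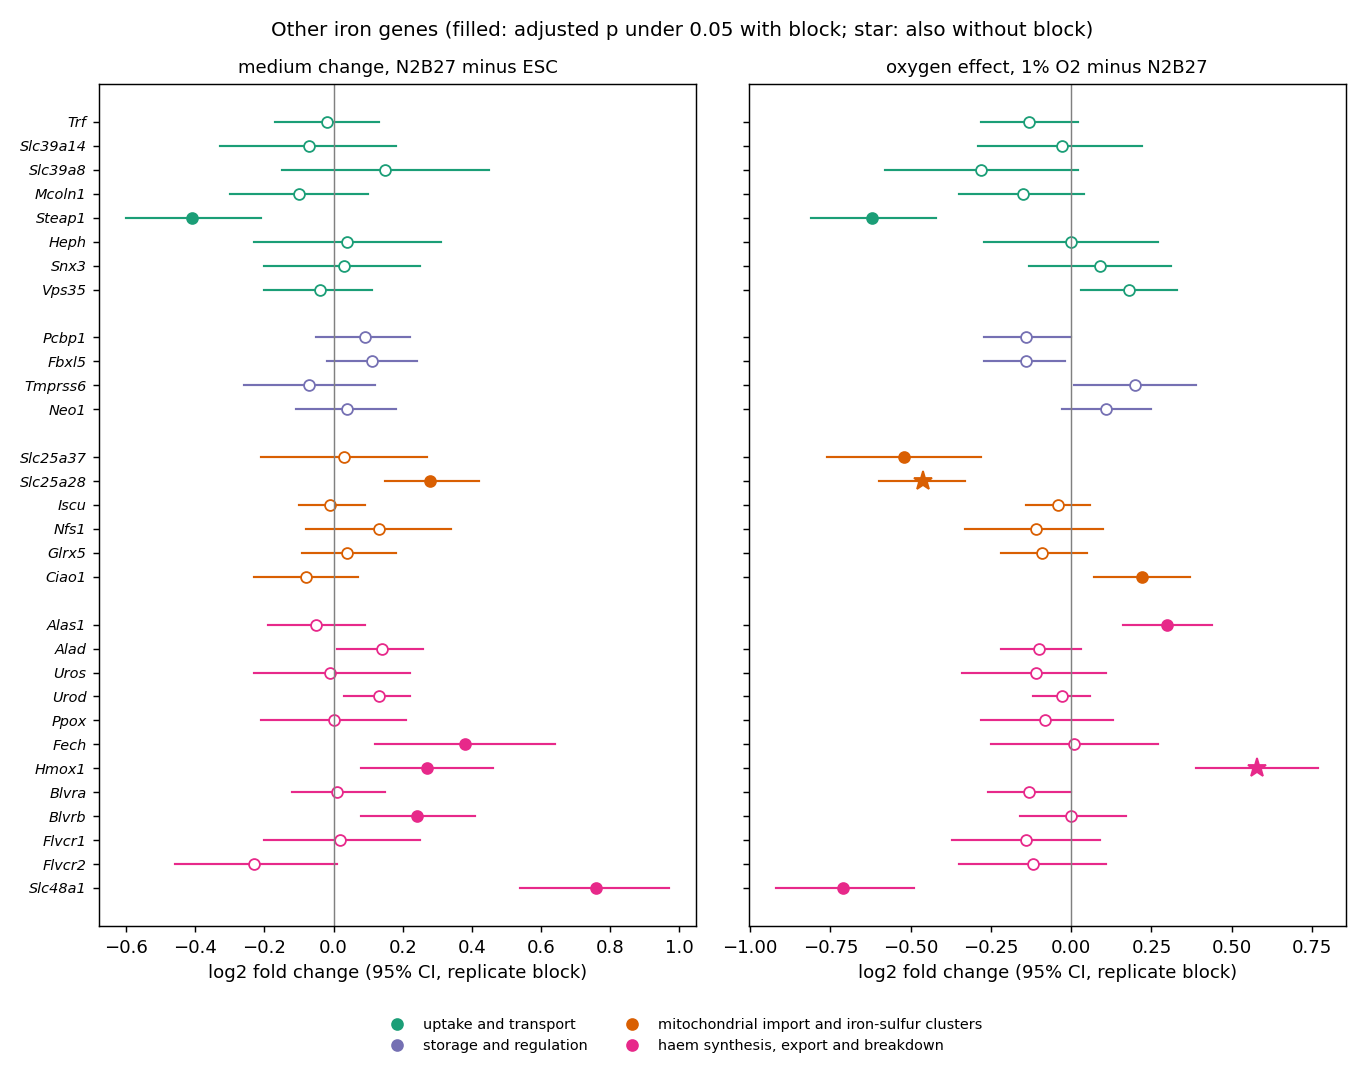
Log2 fold changes of 30 other tested iron genes (without Tfr2) in the medium change and the oxygen effect in N2B27, with 95% confidence intervals of the model with the replicate block; filled points have an adjusted p under 0.05 with the block, stars also without it. Slc48a1 stands at 0.76 in the medium change and at -0.71 under low oxygen, and stars mark Slc25a28 and Hmox1 in the oxygen panel; the panels share the N2B27 samples.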

How the data were processed

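For 30 arrays the deposited main table gives each probe's intensity, linear and not normalized per the file headers. BeadStudio (version not given) made it per the submitters' processing notes. Between 27.2% and 29.9% of intensities were below 0, so a background had been subtracted before deposit. In a second table the authors deposited processed intensities, with a floor of 50 and an unstated normalization, used as an alternative only. Each of its 30 columns matched its own array best and had a median of 50.

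Intensities were corrected with normexp (offset 0) in limma 3.58.1 (R 4.3.3), log2 transformed and quantile normalized. Second arrays of Dox samples 3 and 4 were averaged with the first. The platform annotation gave 1 symbol to 20983 probes (20967 updated by Entrez number), several to 1 and none to 3627. Named probes above the median of their own array on 4 or more of 28 samples were kept, and the probe with the highest mean stood for its gene. To set each array's background limit, its signals below 0 were mirrored above 0 and the 98th percentile of both was taken, a rule chosen after seeing the data. The number of arrays, not a read depth, limits the precision.

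All 28 samples entered 1 model with 7 group means (lmFit and eBayes, 21 residual degrees of freedom, two-sided, Benjamini-Hochberg within each of 13 comparisons). The labels call samples biological replicates but name no separate cultures, so p-values measure the spread between these samples, which may be technical. Same-numbered samples had deviations that correlated at 0.70 to 0.84 in all 84 pairs. Between different numbers the range was -0.77 to 0.72, which overlaps the first. Still, 28 of 28 samples correlated best with their own number. The numbers, from the labels, therefore pair the samples, and the replicate block is printed where it changes a call. A first component with 51.5% of the variance separates replicates 1 and 2 from 3 and 4.

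The members and lists were chosen with earlier results of these data known. The text names all members, other iron genes called in the medium change or the oxygen effect in N2B27 (at most 8 per direction), the 5 genes most like Tfrc, and 4 reference genes. The fit was tested on simulated data. Alternatives covered background, scaling, filter, probes, samples and source of the values.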

Additional observations from a re-analysis of the deposited data

Results flagged for a closer look

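Of 63 groups of 4 samples (9 probes in 7 groups), 3 held a sample whose gap to its nearest neighbour, as a share of the group's range, was above Dixon's 95% critical value for 4 samples. Chance flags about 1 in 20 such groups. Ftl1 in DAPT replicate 4 was at 15.45, above the 15.26 to 15.29 of the other DAPT samples. Ireb2 in DAPT replicate 2 was at 10.29, below 10.46 to 10.47 in the others. Aco1 in ESC replicate 2 was at 7.20, below 7.61 to 7.67 in the others. None of these 3 genes was called in any comparison.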

How the results depend on the processing

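Tfrc kept its sign in the medium change, the oxygen effects and their difference under all 12 settings and every omission of 1 sample. Its medium change lost its call in a fit of the 2 groups alone (-1.32, adjusted p = 0.0596), and its oxygen effect gained one with the replicate block, at 0.47 in N2B27 and 0.36 over the Dox and DAPT pairs, and at 0.55 with replicates 1 and 2 only. Omissions gave -1.51 to -1.17, 0.34 to 0.58, 0.26 to 0.44 and, for the difference, -1.87 to -1.53. The replicate block ended no call of a member.

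Values near 0 changed sign, with no call on either side. With replicates 3 and 4 only, Aco1 was -0.18 in the medium change and -0.06 over the Dox and DAPT pairs, Ftl1 -0.12, 0.04 in N2B27 oxygen and -0.03 over the pairs, Ireb2 -0.02 in the medium change, and Slc11a2 -0.08 and Slc40a1 -0.01 in N2B27 oxygen. Aco1 oxygen was -0.06 with replicates 1 and 2 only, and its medium change -0.05 with the authors' values. Median scaling gave 0.00 and -0.06 for Ftl1 and -0.08 for Ireb2. Omissions turned Aco1 (-0.09 to 0.07 and -0.01 to 0.14), Ftl1 (-0.02 to 0.07, -0.08 to 0.00 and -0.03 to 0.03), Ireb2 (-0.03 to 0.06 and 0.00 to 0.04), Slc11a2 (-0.05 to 0.14), Slc40a1 (-0.02 to 0.46) and Fth1 in Dox (-0.11 to 0.01). The causes were not tested.

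Counts of called genes moved most. The block raised them to 1575 (medium), 1958 (oxygen), 1908 (oxygen in Dox), 2060 (in DAPT), 3294 (both), 2152 (difference), 3329 (1% O2 against ESC), 170 (Dox), 143 (Dox under 1% oxygen) and 2 (oxygen by Dox interaction). Main counts were 190, 402, 399, 395, 1138, 511, 1118, 33, 19 and 1 (Slc2a1, -0.79, named after its value was seen). Fits of the compared groups alone, with fewer samples, gave 10, 173, 140, 140, 526 for 1% O2 against ESC, 8, 1 and 0. Replicates 1 and 2 only gave 33 (medium), 339 (difference), 735, 8 and 7, and replicates 3 and 4 only 113, 166, 115, 142, 463, 244, 726, 21, 8 and 0. Median scaling gave 829 for oxygen in DAPT, 12 for Dox under 1% oxygen and 0 for the interaction, no filter 21 for Dox, and the authors' values 12 and 0. Omissions gave 120 to 147 (medium, fewest without ESC replicate 3), 260 to 468 (oxygen, fewest without 1% O2 replicate 3), 268 to 473, 282 to 538, 946 to 1242, 394 to 576, 816 to 1050, 18 to 27, 10 to 17 and 0 to 1. Slide as a block was not run, as array names give no slide.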

Other observations

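Second probes of the other iron genes mostly stayed near 0 in the medium change. Fech, called higher by its brightest probe with the replicate block, had second probes at 0.28 (adjusted p = 0.0295 with the replicate block) and 0.19 (0.293). For oxygen in N2B27, Slc39a14, a zinc and iron importer, had 1 of its second probes at -0.41 (adjusted p = 0.0467 with the replicate block), and the other at -0.14 (0.683). The brightest Slc39a14 probe, which stood for the gene, had means of 8.42 in N2B27 and 8.39 in 1% O2. These second probes were named after their values were seen.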
